A study of Homo sapiens with 30 samples.

Results

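The STEAP family (six-transmembrane epithelial antigens of the prostate) comprises STEAP1, STEAP2, STEAP3 and STEAP4, and the open chromatin around these 4 genes was examined by androgen dose in a pair of prostate cancer cell lines. A site belonged to the family when it lay within 50 kb of the RefSeq gene body of a member, and it was assigned to the nearest member. This gave 113 regions of 501 bp out of 444783 in all, with 19 at STEAP1, 38 at STEAP2, 38 at STEAP3 and 18 at STEAP4. They rest on 1768 of the 4661359 peak entries in the 30 lists, 57 to 82 entries per LNCaP library and 36 to 63 per VCaP library. On GRCh38, STEAP1 (chr7:90154469-90164827, plus strand) and STEAP2 (chr7:90211740-90243408, plus strand) are 46.9 kb apart. STEAP4 (chr7:88270892-88306894, minus strand) lies 1.85 Mb away on the same chromosome, and STEAP3 (chr2:119223834-119265652, plus strand) is on another. Of the 113 regions, 40 lie inside a STEAP gene, 20 inside another coding gene (CFAP69 beyond STEAP2, C2orf76 beyond STEAP3) and 53 between coding genes. The annotation used gave no exons, so exonic and intronic sites were not separated.

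STEAP2, STEAP3 and STEAP4 are metalloreductases: they pass electrons from NADPH inside the cell across the membrane, through flavin and heme, to ferric iron or cupric copper. STEAP1 has the membrane part with its heme but lacks the NADPH-binding domain, and its high level on prostate cancer cells has made it a target for antibodies. STEAP3 is best known as the endosomal reductase that frees iron taken up with transferrin. STEAP2 (also named STAMP1) and STEAP4 (STAMP2) were first described as prostate genes, STEAP4 as one that responds to androgen.

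Chromatin was profiled with Omni-ATAC-seq, in which Tn5 transposase cuts accessible DNA. LNCaP is a prostate cancer line that carries a mutant androgen receptor, and VCaP is a line with an amplified receptor gene and the TMPRSS2-ERG fusion. Both were labelled epithelial, were grown in charcoal-stripped serum at 8%, which is poor in steroids, for 48 hours, and then received vehicle or the synthetic androgen R1881 for 24 hours. LNCaP groups were vehicle, 0.03, 0.06, 0.1 and 10 nM (replicates 3, 4 and 5), and VCaP groups were vehicle, 0.01, 0.03, 0.06 and 10 nM (replicates 1, 2 and 4), each with 3 libraries. The study asks how chromatin differs between low and high androgen. Each is 1 cell line in culture, and nothing in the labels says whether replicates came from separate cultures, so p-values measure only the spread between these libraries, which may be technical.

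A marker gene counted as marked where a library listed a peak within 1 kb of either end of the gene. Peaks deeper inside a gene were not counted. All 8 luminal prostate markers were marked in every LNCaP library, and 7 to 8 of them in VCaP libraries, where KLK3 was marked in 2 of 15. Of the basal markers, KRT14 and TP63 had none in any library, and KRT5 had one in 3 LNCaP libraries and 1 VCaP library. Of the stromal markers, COL1A1 and DCN had none, VIM had one in 1 VCaP library, and COL1A2 was marked in 15 LNCaP and 12 VCaP libraries. Of 3 immune markers, 1 to 3 were marked per library, and of 3 neuroendocrine markers, 2 in LNCaP and 3 in VCaP. The number of entries per list was 135254 to 223998 for LNCaP and 105034 to 170787 for VCaP. The number of reads is unknown. VCaP replicate 2 libraries stood apart in peak height, with a median summit pileup (fragments stacked at a peak's summit) of 7 to 11, against 12 to 22 in replicates 1 and 4. VCaP vehicle replicates 1 and 2 had a background pileup of 1.14 and 1.09, against 1.78 to 2.74 in the other VCaP libraries. In LNCaP the median summit pileup was 24, 23 and 19 with vehicle and 31, 35 and 29 at 10 nM, without overlap. The background pileup there overlapped, at 3.06, 4.05 and 4.83 against 4.06, 5.10 and 4.13. In VCaP the median was 12, 7 and 15 with vehicle and 21, 11 and 20 at 10 nM. It was higher at each replicate number, though the groups overlap. How far depth or peak height bears on the vehicle contrasts of either line was not tested.

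The promoters of the family are shown first, because the starts were open in every library. RefSeq (GRCh38.p14) gave 5 windows of 300 bases, from 250 before a start to 50 after it, and all 4 genes matched. STEAP2 has 2 of them, one at its start and one at a second start 2.0 kb downstream. The windows of STEAP4, STEAP2 and STEAP1 are printed 5′ to 3′ in the direction of transcription, with capitals marking matches to any of 6 motifs searched on both strands. These were AGAACA (androgen response element half-site), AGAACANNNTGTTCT (full element), GTAAACA (forkhead), GGGCGG (GC box), CCGGAA (ETS) and TGACTCA (AP-1). Every full element holds the half-site on both strands.
STEAP4 (chr7:88306845-88307144, minus strand): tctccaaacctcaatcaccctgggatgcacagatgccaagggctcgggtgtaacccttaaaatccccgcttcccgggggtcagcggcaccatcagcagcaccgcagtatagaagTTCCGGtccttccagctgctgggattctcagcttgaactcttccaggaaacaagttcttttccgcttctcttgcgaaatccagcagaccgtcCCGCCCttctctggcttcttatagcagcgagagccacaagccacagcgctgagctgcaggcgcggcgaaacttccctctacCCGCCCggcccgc
STEAP2 first start (chr7:90211490-90211789, plus strand): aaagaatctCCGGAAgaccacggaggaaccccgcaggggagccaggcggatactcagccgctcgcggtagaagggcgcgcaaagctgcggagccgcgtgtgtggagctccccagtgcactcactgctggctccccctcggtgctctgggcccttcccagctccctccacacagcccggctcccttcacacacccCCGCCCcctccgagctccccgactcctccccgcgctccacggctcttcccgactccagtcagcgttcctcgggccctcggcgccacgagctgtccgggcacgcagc
STEAP2 second start (chr7:90213570-90213869, plus strand): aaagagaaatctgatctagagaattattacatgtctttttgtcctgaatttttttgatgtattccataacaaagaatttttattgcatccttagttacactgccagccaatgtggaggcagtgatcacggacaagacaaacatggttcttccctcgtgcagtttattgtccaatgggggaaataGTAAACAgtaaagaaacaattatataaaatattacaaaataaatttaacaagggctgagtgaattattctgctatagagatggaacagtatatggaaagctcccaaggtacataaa
STEAP1 (chr7:90154219-90154518, plus strand): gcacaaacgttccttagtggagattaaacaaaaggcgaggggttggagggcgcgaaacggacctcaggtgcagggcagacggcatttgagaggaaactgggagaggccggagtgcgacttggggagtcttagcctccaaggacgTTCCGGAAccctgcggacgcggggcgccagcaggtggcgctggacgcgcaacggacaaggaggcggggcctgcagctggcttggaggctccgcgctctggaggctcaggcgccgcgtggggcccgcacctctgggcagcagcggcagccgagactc

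Neither the androgen half-site nor the full element was found in any of the 5 windows. Among all 35116 promoters of that length, 14.8% hold the half-site and 0.00285% (1 promoter) the full element. The STEAP4 window holds 2 GC boxes and 1 ETS match, the first STEAP2 window 1 of each, and the STEAP1 window 2 overlapping ETS matches on opposite strands. The STEAP3 window (chr2:119223584-119223883, plus strand) holds 3 GC boxes. GC boxes occur in 45.0% and ETS matches in 17.2% of all promoters. The second STEAP2 start differs in composition, with 33.7% G and C against 70.3% at the first start and a median of 58.7% over all promoters, and it holds 1 forkhead match, found in 3.42% of all promoters. No window holds the AP-1 motif, present in 4.95% of promoters.

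Levels below are percentile ranks: each peak's place, from 0 to 100, among the peaks of its own library ordered by −log10 p. The lists of a line were first shortened to equal length, and a site is called unlisted, with a rank of 0, where the shortened list holds no peak over it. The deposited list can still hold a weaker one. A difference is in percentile points with its standard error (SE), and the test was limma over all tested regions of a line, with calls made where the p adjusted by Benjamini-Hochberg was under 0.05. A rank cannot tell a site opening in all cells from one opening in some of them. The starts of all 4 genes were listed in all 30 libraries. In LNCaP with vehicle, the STEAP2 start ranked 96.2, 95.7 and 98.4 and the STEAP1 start 93.7, 91.4 and 96.5, ranges that overlap. The STEAP3 start ranked 89.9, 89.0 and 76.2 and the STEAP4 start 82.3, 82.9 and 81.4, so these starts overlapped each other and lay below STEAP1 and STEAP2. VCaP vehicle libraries had STEAP2 first again, at 99.6, 97.6 and 98.8, then STEAP1 at 89.4, 89.7 and 95.8, STEAP3 at 84.1, 79.2 and 91.2 and STEAP4 at 85.8, 80.6 and 71.2. There the last 3 overlapped pairwise except STEAP1 and STEAP4. At 10 nM no start was called in LNCaP, and in VCaP only the STEAP3 start was called, as described with that gene. Ranked by fold enrichment over local background instead, 3 LNCaP starts were called lower: STEAP4 by −33.3 points (adjusted p = 0.000177), STEAP2 by −31.2 (0.0110) and STEAP1 by −29.3 (0.000416). The STEAP4 start of VCaP was then called lower too (−38.5, adjusted p = 0.0154).

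The second STEAP2 start was listed more often in LNCaP than in VCaP. The region over it ranked 82.9, 84.6 and 84.0 with vehicle in LNCaP and was listed in all 15 LNCaP libraries. In VCaP it was listed in 4 of 15 libraries (7 in the deposited lists) and in none with vehicle, although the first start, 2.0 kb away, stood at the top of the VCaP lists. The reverse held 34.9 and 35.6 kb upstream of STEAP1, where 1 VCaP peak ranked 87.3, 79.8 and 86.0 with vehicle and was listed in 15 of 15 VCaP libraries. In LNCaP these regions were listed in 6 and 1 of 15, or in 10 and 1 in the deposited lists, where the summit pileup at −34.9 kb was 14, 14 and 16 at 10 nM. Both contrasts between the lines were chosen after the values were seen and are given as a description. The shortened lists hold 134964 entries in LNCaP and 104924 in VCaP, and median summit pileups ran from 19 to 35 and from 7 to 22. At the second STEAP2 start, VCaP replicates 1 and 4 at 10 nM had summits of 35 and 26 fragments. The local background there was 16.5 and 15.1 fragments. A site unlisted in 1 line may therefore still be open.

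At 10 nM against vehicle, 10 regions ranked higher and 10 lower of 72 tested in LNCaP. This is 27.8% of the STEAP regions, against 25.3% of all 188703 regions tested (15.7% higher and 9.62% lower). The median difference was −1.01 points, against −0.13 over all regions. In VCaP, 6 rose and 3 fell of 59 tested, 15.3% against 8.75% of all 142574 regions (6.09% higher and 2.66% lower). The median there was 0.94 points, against −0.10. Regions tested had a peak in at least 3 of 15 libraries, which 35 of the 113 regions reached in neither line. A region unlisted in all vehicle libraries could not fall against vehicle. STEAP3 +79.7 kb, among the LNCaP rises, passed this filter through its 10 nM libraries. Several neighbouring regions share 1 deposited peak and carry the same value, so these counts exceed the number of separate sites. With all peaks as deposited instead of lists shortened to equal length, LNCaP gave 15 higher and 5 lower, and with peaks ranked by fold enrichment 9 and 14.

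**Figure D1:**
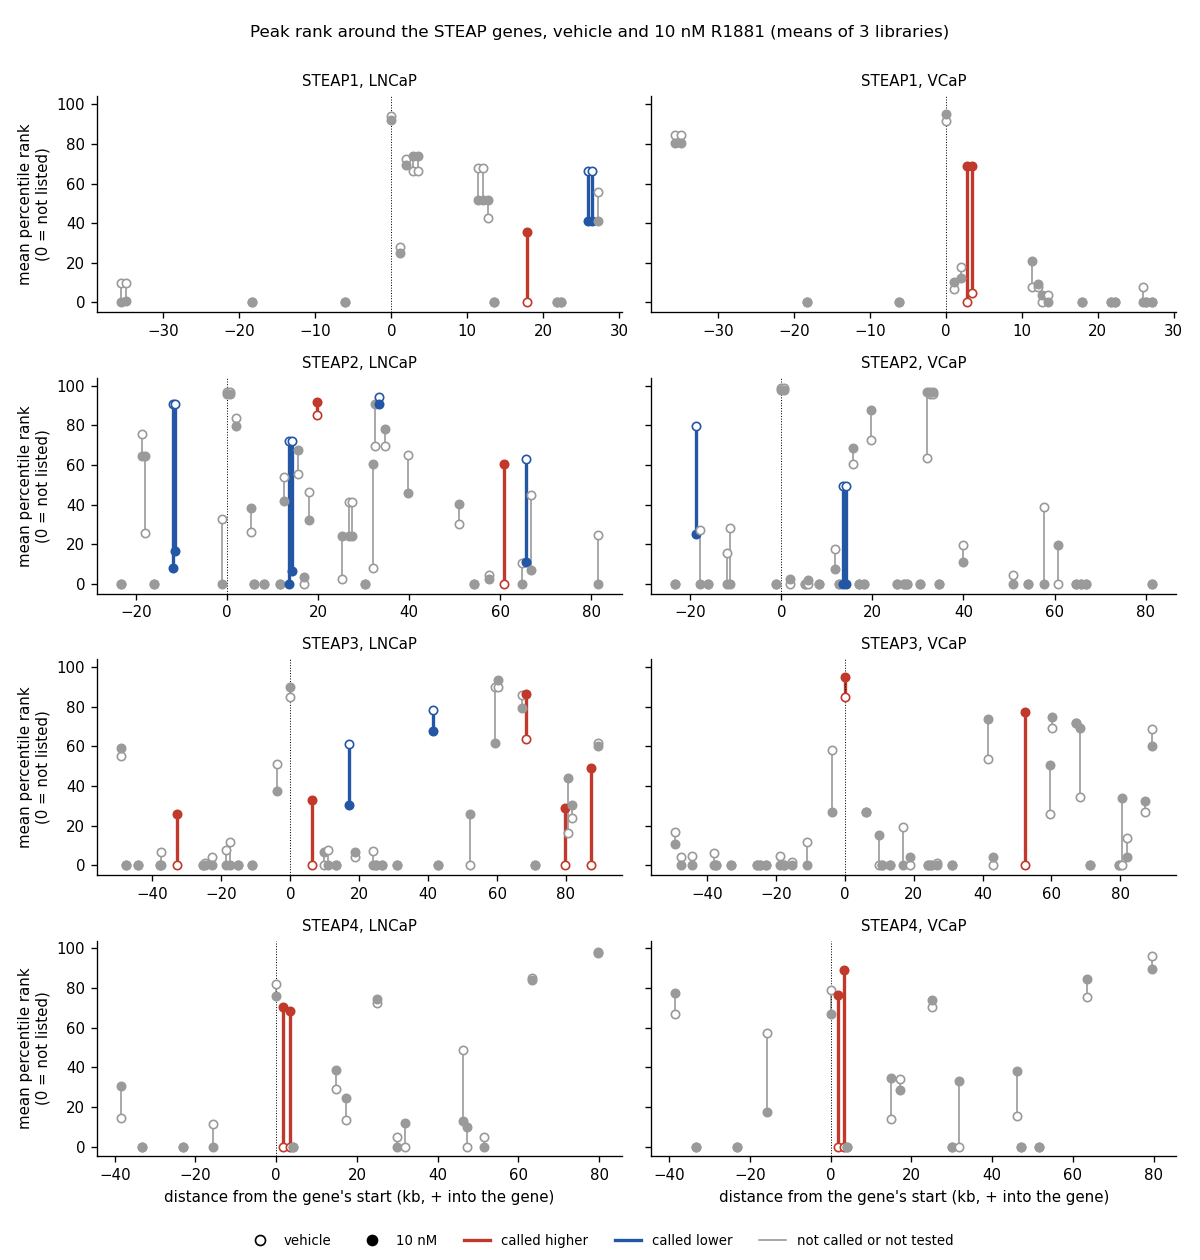
Mean percentile rank (vertical axis, 0 = not listed) of every STEAP region in 3 vehicle libraries (open circles) and 3 libraries at 10 nM R1881 (filled circles), against distance from the gene's start in kb, for each gene and line. Red and blue lines mark the 10 higher and 10 lower regions called in LNCaP and the 6 and 3 called in VCaP. Only at STEAP4 do called rises of both lines fall on the same regions; there the VCaP start (mean rank 66.9 at 10 nM) lies below both.

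STEAP4 gained a pair of sites just inside the gene in both lines, 1.7 kb (chr7:88304965-88305465) and 3.3 kb (chr7:88303373-88303873) downstream of its start. With vehicle neither was listed in any of the 6 libraries, and of the deposited lists only that of VCaP replicate 2 holds a summit there, of 4 fragments at +3.3 kb. At 10 nM the site at +1.7 kb ranked 74.2, 67.6 and 69.4 in LNCaP and 75.3, 78.5 and 75.0 in VCaP. The site at +3.3 kb ranked 82.5, 61.0 and 62.2 in LNCaP and 84.3, 89.6 and 92.7 in VCaP. Every library at 10 nM thus lay above every vehicle library, at both sites and in both lines. The differences at +1.7 kb were 70.4 ± 12.3 (SE) in LNCaP (adjusted p = 0.000579) and 76.3 ± 16.1 in VCaP (adjusted p = 0.00600). At +3.3 kb they were 68.5 ± 15.96 (adjusted p = 0.00495) and 88.9 ± 15.9 (adjusted p = 0.00204). With peaks held to a −log10 q of at least 5, the LNCaP rise at +3.3 kb was 24.7 and not called (adjusted p = 0.103), and the VCaP rise was 52.1 and still called. The change did not differ between the lines beyond its error, at −5.87 ± 19.2 and −20.3 ± 22.0 points (LNCaP minus VCaP, adjusted p = 0.934 and 0.741), with errors wide enough to hold a difference of either sign.

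The low doses gave a graded picture at STEAP4. At 0.03 nM in LNCaP, +1.7 kb was listed only in replicate 5, at 6.73, and +3.3 kb in no library. At 0.1 nM, +1.7 kb ranked 48.6 in replicate 3 and 19.5 in replicate 5, and +3.3 kb ranked 69.5 and 58.6 in replicates 3 and 4, with the remaining library unlisted each time. VCaP at 0.06 nM already ranked +3.3 kb at 86.7, 69.3 and 87.3, a rise of 81.1 ± 15.9 (adjusted p = 0.0202). This rise was not called when only these groups entered the fit or with a −log10 q of at least 5. Its call was also lost without VCaP 0.06 nM replicate 1 or replicate 4. No low-dose group of LNCaP was called at either site. The rise from the low doses to 10 nM was called at +1.7 kb in LNCaP (57.9 ± 10.0, adjusted p = 0.000933) and in VCaP (59.4 ± 13.1, adjusted p = 0.0103). Without VCaP 10 nM replicate 1 or replicate 4 the latter adjusted p was 0.0556 and 0.0504. At +3.3 kb it was called in LNCaP (44.6 ± 13.0, adjusted p = 0.0317) but lost without any 1 of the 10 nM replicates 3, 4 and 5.

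**Figure D2:**
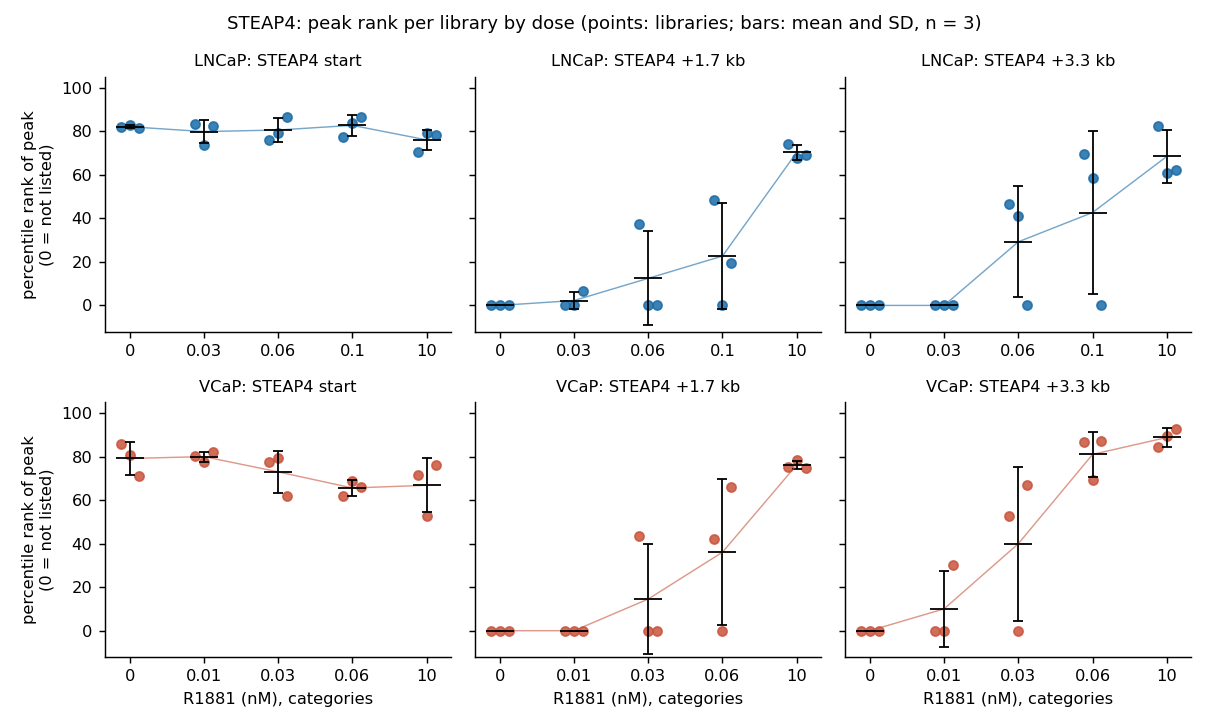
Percentile rank (vertical axis) of the STEAP4 start and the sites 1.7 and 3.3 kb downstream, by R1881 dose in nM (horizontal axis, categories), for LNCaP above and VCaP below. Points are libraries and bars are mean and SD of 3; the start stays between 52.7 and 86.8 while both inner sites go from 0 in every vehicle library to 61.0 or more in every library at 10 nM.

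Fragment pileups recovered from the lists add to this at the STEAP4 start. Its rank was 70.7, 79.1 and 78.6 at 10 nM in LNCaP, a difference of −6.05 ± 3.49 that was not called (adjusted p = 0.233). Its summit pileup, however, was 62, 69 and 34 fragments with vehicle and 107, 165 and 136 at 10 nM. Divided by the median summit pileup of each library, this is 2.58, 3.0 and 1.79 against 3.45, 4.71 and 4.69, with no overlap. The local background that the peak caller set against the start went from 4.25, 4.33 and 4.83 to 16.1, 20.2 and 15.96 fragments. In VCaP the background went from 2.2, 1.28 and 3.25 to 12.4, 5.77 and 11.4, and the pileup over the library median from 2.67, 1.71 and 1.87 to 3.29, 1.91 and 3.45, groups that overlap. In LNCaP the rank, which comes from a p-value set against this local background, showed no rise at a start whose pileup was higher, and by fold enrichment the start was called lower, as given above. The part of the background in the ranks was not tested.

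STEAP2 held the family's strongest fall. A peak 11.3 kb upstream of its start (chr7:90200230-90200730, reaching into the region at −11.9 kb, chr7:90199622-90200122) ranked 89.6, 90.1 and 92.7 with vehicle in LNCaP and 23.4, 24.4 and 1.38 at 10 nM. The low doses lay between, at 85.9, 87.2 and 88.3 (0.03 nM), 82.9, 84.7 and 85.7 (0.06 nM) and 81.2, 63.1 and 74.4 (0.1 nM), none of them called. The difference at 10 nM was −74.4 ± 5.62 points against vehicle (adjusted p = 5.11e-07) and −65.1 ± 4.59 against the low doses (adjusted p = 1.22e-06). The region at −11.9 kb gave −82.7 ± 5.95 and −73.4 ± 4.86 from the same peak. Pileup fell as well, from 103, 122 and 56 fragments to 21, 33 and 20, that is from 4.29, 5.30 and 2.95 to 0.68, 0.94 and 0.69 times the library median. Both regions were called lower under every alternative run, though the size at −11.3 kb was −47.9 with all peaks as deposited. The site lies between coding genes and within the span of the noncoding gene STEAP2-AS1. In VCaP it was weak: 32.3, 5.24 and 47.3 with vehicle and unlisted in all 3 libraries at 10 nM (−28.3 ± 13.0, adjusted p = 0.213).

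Inside STEAP2, a peak over the regions at +13.6 and +14.2 kb (chr7:90225135-90225635 and chr7:90225653-90226153) lost its rank in both lines. At +14.2 kb LNCaP ranked it 67.6, 75.9 and 73.5 with vehicle, 52.2, 47.5 and 14.7 at 0.1 nM, and 19.6, 0 and 0 at 10 nM. In VCaP it went from 49.95, 52.4 and 46.2 to 0 in all 3. The differences were −65.8 ± 11.0 (adjusted p = 0.000425) and −49.5 ± 12.9 (adjusted p = 0.0218). The VCaP call was lost when any 1 library other than vehicle replicate 4 was left out, with adjusted p between 0.0535 and 0.0761, while in LNCaP it stood without any 1. At +14.2 kb the VCaP call was also lost by fold enrichment (−45.2, adjusted p = 0.106) and when only summits inside the region counted (−32.1, adjusted p = 0.266). The +13.6 kb region holds few summits of its own and was not called when only summits inside the region counted. The pileups describe this site differently from the ranks. In LNCaP the summit pileup at +14.2 kb was 70, 89 and 42 with vehicle and 55, 74 and 51 at 10 nM, groups that overlap, while the local background went from 15.6, 15.5 and 11.2 to 22.96, 45.3 and 33.4.

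Other sites in the first 20 kb of STEAP2 rose in pileup. At +19.7 kb (chr7:90231238-90231738) LNCaP ranks went from 86.0, 85.4 and 84.0 to 93.4, 90.1 and 91.7, a rise of 6.61 ± 1.28 (adjusted p = 0.00135). The rise was already there at low doses (6.16 ± 1.05, adjusted p = 0.00152), and 10 nM did not differ from them (0.45 ± 1.05, adjusted p = 0.831). Pileup went from 116, 122 and 48 fragments to 331, 337 and 283, or from 4.83, 5.30 and 2.53 to 10.7, 9.63 and 9.76 times the library median. Ranked by fold enrichment over local background, however, the difference turned to −17.6 at 10 nM and to 0.093 at low doses, neither called. In VCaP the ranks were 65.6, 68.6 and 84.0 with vehicle and 86.4, 90.9 and 85.6 at 10 nM, apart but not called (14.9 ± 5.09, adjusted p = 0.0825). At +15.7 kb (chr7:90227209-90227709), a site outside the naming rule and chosen after its values were seen, LNCaP pileup went from 69, 60 and 33 to 145, 237 and 170. The rank there moved by 12.4 ± 5.42 and was not called (adjusted p = 0.112).

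**Figure D3:**
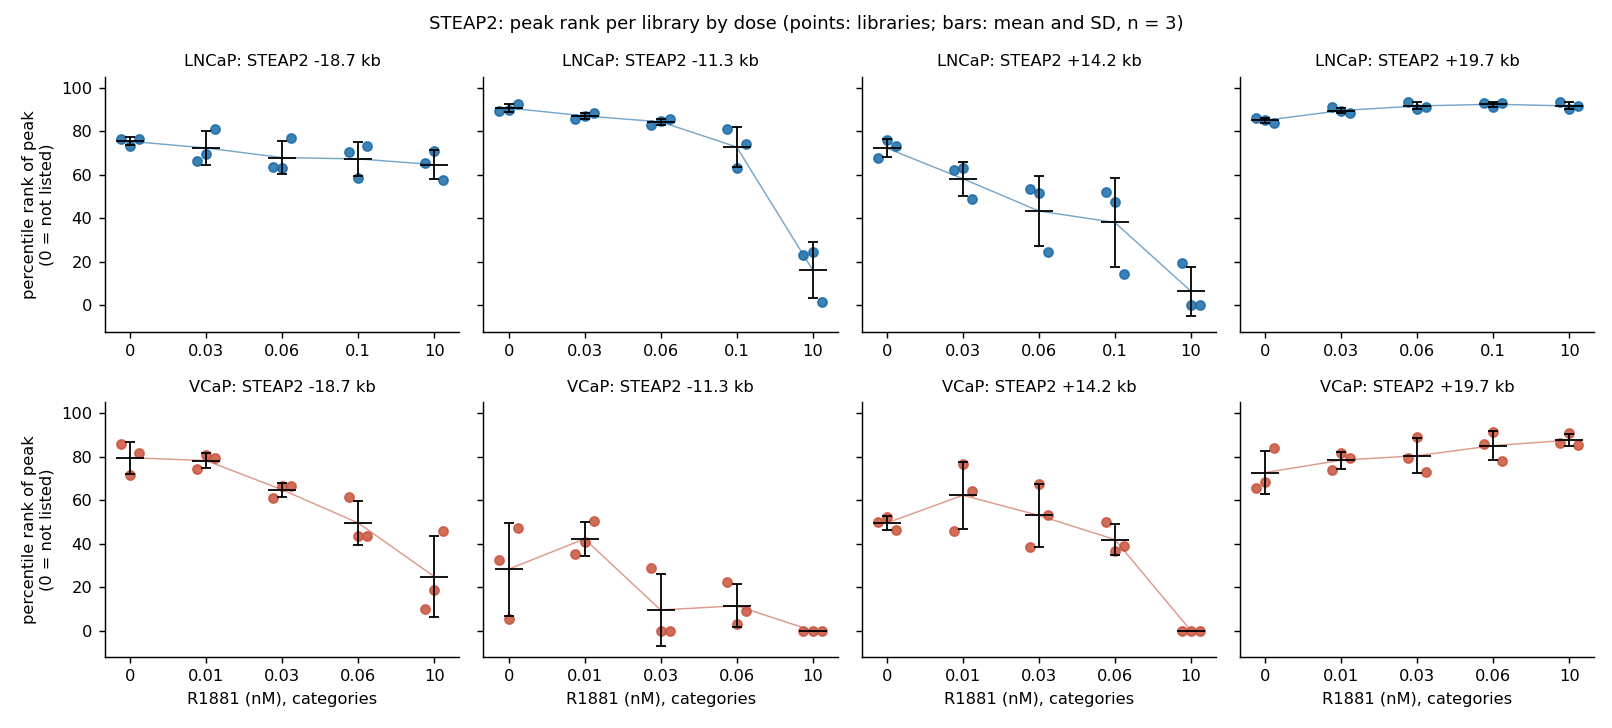
Percentile rank (vertical axis) at 4 STEAP2 sites by R1881 dose in nM (horizontal axis, categories), LNCaP above and VCaP below; points are libraries and bars are mean and SD of 3. The site at −11.3 kb drops in LNCaP between 0.1 and 10 nM, the site at −18.7 kb drops in VCaP and stays between 57.8 and 81.3 in LNCaP, and the site at +14.2 kb reaches 0 in all VCaP libraries at 10 nM.

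The site 18.7 kb upstream of STEAP2 (chr7:90192777-90193277) fell in VCaP and was not called in LNCaP. VCaP ranked it 85.7, 71.4 and 81.6 with vehicle, 61.3, 43.8 and 43.6 at 0.06 nM and 10.1, 18.6 and 46.0 at 10 nM. The fall was −54.7 ± 10.2 against vehicle (adjusted p = 0.00271) and −39.3 ± 8.33 against the low doses (adjusted p = 0.00758, and lost without VCaP 10 nM replicate 1). With only the groups compared, the adjusted p of the former was 0.0540. With a −log10 q of at least 5 the falls were −19.6 (adjusted p = 0.136) and −3.17 (adjusted p = 0.920), neither called. Pileup went from 34, 9 and 38 to 11, 9 and 19 fragments. Over the library medians of 12, 7 and 15 and then 21, 11 and 20 this was 2.83, 1.29 and 2.53 against 0.52, 0.82 and 0.95. LNCaP ranked the site 76.6, 73.3 and 76.5 with vehicle and 65.3, 71.1 and 57.8 at 10 nM (−10.7 ± 5.45, adjusted p = 0.172), groups that do not overlap. The change differed between the lines by 43.96 ± 11.0 points (adjusted p = 0.0299).

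Beyond the end of STEAP2, inside CFAP69, a region at +60.8 kb (chr7:90272334-90272834) rose in LNCaP from unlisted to 64.6, 58.8 and 57.8 (60.4 ± 13.97, adjusted p = 0.00473). At 0.06 nM it ranked 53.3, 41.5 and 7.82 and at 0.1 nM 46.8, 57.8 and 0. At 65.8 kb, also in CFAP69 and named after its values were seen, a site fell from 63.9, 69.7 and 56.0 to 10.7, 21.4 and 0.33 (−52.4 ± 8.45, adjusted p = 0.000317). These regions lie inside another gene, and which gene they act on was not measured.

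**Figure D4:**
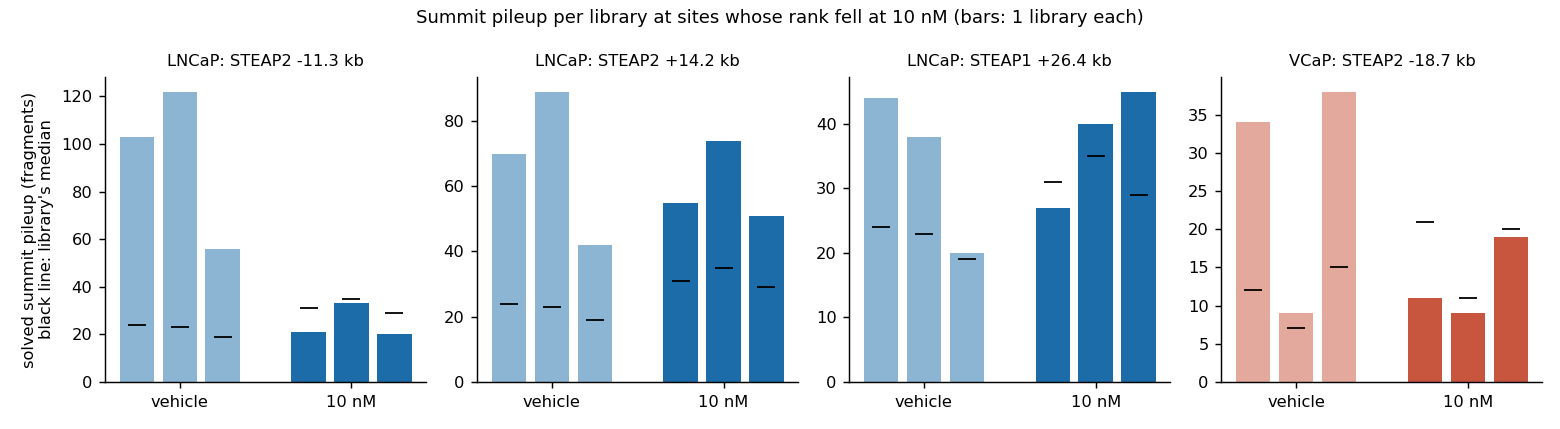
Summit pileup in fragments (vertical axis) per library with vehicle and at 10 nM R1881, at 4 sites whose rank fell; each bar is 1 library and each black line that library's median summit pileup. Pileup drops from 56 or more to 33 or fewer at STEAP2 −11.3 kb in LNCaP, while the groups overlap at STEAP2 +14.2 kb and at STEAP1 +26.4 kb.

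STEAP3 showed its largest change in VCaP, 52.2 kb downstream of the start and past the gene's end (chr2:119275833-119276333), 5.05 kb from C2orf76. The site was unlisted in all 3 vehicle libraries, ranked 54.5, 60.5 and 69.8 at 0.06 nM and 69.9, 79.2 and 83.2 at 10 nM. The difference at 10 nM was 77.4 ± 12.3 against vehicle (adjusted p = 0.00105) and 52.1 ± 10.1 against the low doses (adjusted p = 0.00375). With all peaks as deposited, the latter was 46.6 and not called (adjusted p = 0.0536). In LNCaP it was listed at 10 nM in 2 of 3 libraries, at 35.9 and 41.3 (25.7 ± 9.38, adjusted p = 0.0583). Full lists of LNCaP hold a summit there in all 3 libraries at 10 nM, with a pileup of 27, 21 and 37.

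The STEAP3 start ranked higher with androgen in VCaP, at 84.1, 79.2 and 91.2 with vehicle and 97.2, 93.8 and 93.6 at 10 nM (10.0 ± 2.51, adjusted p = 0.0175). Low doses gave 9.50 ± 2.05 against vehicle (adjusted p = 0.0420), a call lost in 9 of the 12 fits that left out 1 library (adjusted p up to 0.187 without vehicle replicate 2), by fold enrichment (0.0843) and with only these groups (0.107). The call at 10 nM did not survive leaving out VCaP 10 nM replicate 1 (adjusted p = 0.0880), vehicle replicate 1 (0.0520) or vehicle replicate 2 (0.0751), and was lost when only summits inside the region counted (0.246) or only these groups were fitted (0.162). In LNCaP the start went from 89.9, 89.0 and 76.2 to 93.7, 89.6 and 87.0 (5.03 ± 3.34, adjusted p = 0.304).

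In LNCaP, a STEAP3 region at +68.3 kb (chr2:119291856-119292356, inside C2orf76) went from 67.6, 66.2 and 57.7 to 85.7, 90.4 and 83.6 at 10 nM (22.7 ± 3.78, adjusted p = 0.000407). It had risen by 12.9 ± 3.08 at low doses (adjusted p = 0.0178, and 0.0903 without LNCaP vehicle replicate 5). A neighbouring peak at +67.2 kb reaches into the region and gave it a rank in vehicle libraries. With only summits inside the region counted, the differences were 64.5 and 54.4 points, both called. Its own summit had no entry in vehicle replicate 3 and a pileup of 23 and 20 in the others, against 167, 236 and 156 at 10 nM. Ranked by fold enrichment, neither rise was called. A region at +87.2 kb, also in C2orf76, went from unlisted in all vehicle libraries to 56.9, 57.4 and 65.3 at 0.03 nM and 44.6, 55.1 and 46.7 at 10 nM (48.8 ± 12.4, adjusted p = 0.00859).

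The remaining named STEAP3 regions in LNCaP were less firm. At +16.9 kb, inside the gene, ranks fell from 63.0, 65.6 and 54.7 to 29.4, 27.5 and 33.7 (−30.9 ± 6.50, adjusted p = 0.00242). Pileups there overlapped, at 36, 48 and 29 against 26, 40 and 37, and neither complete lists (−13.7) nor ranks by fold enrichment (−22.2) gave a call. Rises at +6.2 kb (33.1 ± 11.2, adjusted p = 0.0425) and +79.7 kb (28.7 ± 9.44, adjusted p = 0.0372) and a fall at +41.5 kb (−10.7 ± 3.55, adjusted p = 0.0391) were called in 0 of 6, 1 of 4 and 1 of 6 of the fits that left out 1 library and tested them. At +79.7 kb no LNCaP library at 10 nM held a summit inside the region. There 2 of 3 listed a peak reaching into it, and the groups overlap. The only other listing was in 1 library at 0.1 nM, so the region passed the filter of 3 libraries through 10 nM. Unlisted with vehicle, it could not fall, and its p gives no support for a rise.

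STEAP1, the member without the reductase domain, gained a peak in VCaP, called over the 3 low doses together and at 10 nM. The peak has its summit 3.5 kb downstream of the start (chr7:90157728-90158228) and reaches into the region at +2.8 kb (chr7:90157022-90157522). At +3.5 kb VCaP ranked it 0, 0 and 14.5 with vehicle, 29.5, 68.0 and 45.0 at 0.01 nM, 51.0, 83.8 and 64.7 at 0.03 nM, 72.4, 65.2 and 71.3 at 0.06 nM and 62.1, 73.4 and 70.5 at 10 nM. All 12 libraries with androgen lay above all 3 with vehicle. The low doses differed from vehicle by 56.4 ± 10.2 points (adjusted p = 0.0133) and 10 nM by 63.8 ± 12.5 (adjusted p = 0.00364), and 10 nM did not differ from the low doses (7.44 ± 10.2, adjusted p = 0.844). Neither call was made when peaks were ranked by fold enrichment, and the low-dose call was lost when only these groups entered the fit. In LNCaP the same peak was listed in all 15 libraries, at 52.4, 62.2 and 84.7 with vehicle and 79.9, 66.7 and 75.5 at 10 nM (7.60 ± 6.56, adjusted p = 0.439).

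The change at +3.5 kb differed between the lines by −56.2 ± 13.1 points (LNCaP minus VCaP, adjusted p = 0.0179). Pileups, however, rose in LNCaP too, from 59, 73 and 61 fragments to 183, 206 and 196, or from 2.46, 3.17 and 3.21 to 5.90, 5.89 and 6.76 times the library median. The local background there went from 19.1, 19.9 and 13.1 to 30.2, 52.9 and 40.9. In VCaP at 10 nM the pileup was 55, 28 and 55, 2.62, 2.55 and 2.75 times the median. The difference between the lines was thus one of ranks, and was not tested on pileups.

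**Figure D5:**
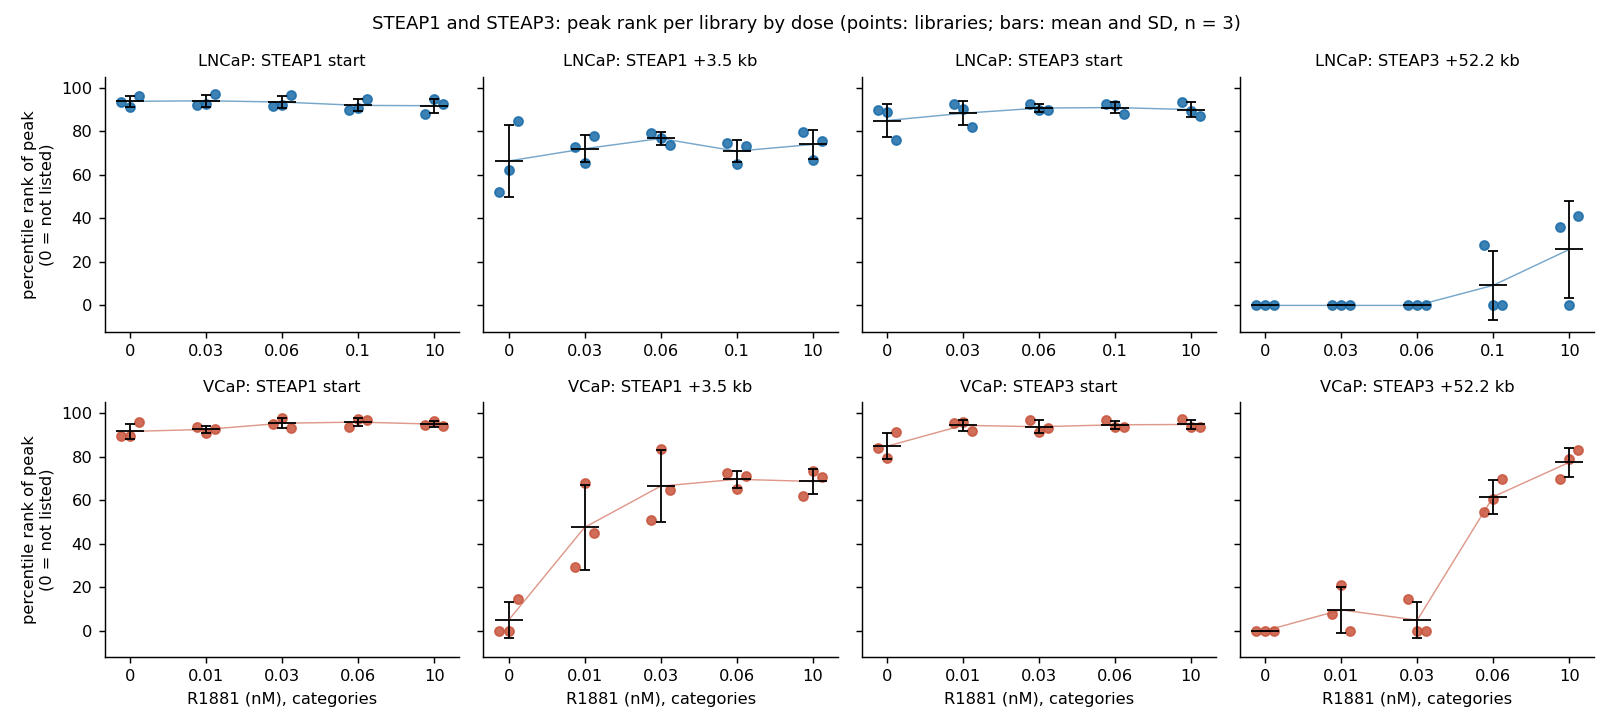
Percentile rank (vertical axis) of the STEAP1 and STEAP3 starts and of STEAP1 +3.5 kb and STEAP3 +52.2 kb by R1881 dose in nM (horizontal axis, categories), LNCaP above and VCaP below; points are libraries and bars are mean and SD of 3. STEAP1 +3.5 kb is listed in 1 VCaP vehicle library and in all 12 with androgen, and STEAP3 +52.2 kb reaches 54.5 or more in every VCaP library from 0.06 nM.

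Downstream of STEAP1 in LNCaP, a broad peak over +25.9 and +26.4 kb (chr7:90180080-90180580 and chr7:90180623-90181123) fell from 73.0, 66.3 and 59.0 to 35.0, 43.6 and 45.2 (−24.8 ± 5.77, adjusted p = 0.00490). It stood at 54.5 to 74.7 over the 9 low-dose libraries. Its summit pileup at +26.4 kb was 44, 38 and 20 with vehicle and 27, 40 and 45 at 10 nM, which overlap. With complete lists in place of shortened ones the fall lost its call (−11.2, adjusted p = 0.272). At +17.9 kb a site rose from unlisted to 45.4, 35.1 and 26.8 (35.7 ± 9.74, adjusted p = 0.0134), and without LNCaP 10 nM replicate 3 the adjusted p was 0.0553. Neither site was listed in VCaP at 10 nM in the shortened lists.

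Low doses called few STEAP regions, all of them higher in the fits as designed. Rises led over all regions too: 10851 rose and 2858 fell of 188703 over the LNCaP low doses. In VCaP 685 rose and 241 fell of 142574. With the replicate block, however, LNCaP STEAP regions gave 3 higher and 2 lower over the low doses and 2 and 2 at 0.1 nM. With a −log10 q of at least 5 they gave 0 and 2 at 0.03 nM and 2 and 4 at 0.1 nM. Over the 3 low doses together, 3 of 72 regions rose in LNCaP, against 5.75% of all regions rising, namely STEAP2 +19.7 kb, STEAP3 +68.3 kb and STEAP3 +87.2 kb. In VCaP 3 of 59 rose, against 0.480% of all, namely the pair of regions under the STEAP1 +3.5 kb peak and the STEAP3 start. Dose by dose, LNCaP had 1, 3 and 2 higher at 0.03, 0.06 and 0.1 nM, against 2.03%, 4.70% and 7.06% of all regions. VCaP had 1 at 0.03 nM and 4 at 0.06 nM, against 0.208% and 0.861%. At 0.01 nM limma called 0 of 59 STEAP regions in VCaP, against 0.0309% of all regions, with 4 at an unadjusted p under 0.05. The alternatives gave 0 there as well, except for 1 without VCaP vehicle replicate 4. From the low doses to 10 nM, 5 regions rose and 10 fell in LNCaP (14.7% of all called, 8.87% higher and 5.79% lower), and 2 rose and 3 fell in VCaP (5.15% of all called, 3.99% higher and 1.15% lower). All contrasts against vehicle within a line share the same 3 vehicle libraries.

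At 53 regions tested in both lines, 5 changed by a different amount in LNCaP and VCaP at 10 nM, against 2.49% of all 108857. LNCaP changed less, or fell more, at STEAP1 +2.8 kb (−61.1 ± 12.8, adjusted p = 0.00880), STEAP1 +3.5 kb, STEAP2 −11.9 kb (−66.9 ± 15.3, adjusted p = 0.0159) and STEAP3 +52.2 kb (−51.7 ± 12.9, adjusted p = 0.0286). It fell less at STEAP2 −18.7 kb. VCaP ranked STEAP2 −11.9 kb low with vehicle, which limited how far its rank there could fall. At STEAP2 −11.3 kb, under the same peak as −11.9 kb, the difference of −46.1 ± 13.6 was not called (adjusted p = 0.0724).

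Other genes of iron and copper handling were counted in the same way, from a list of 30. Within 50 kb of them, 53 regions rose and 39 fell of 437 tested in LNCaP at 10 nM, 21.1% called, and 24 rose and 6 fell of 341 in VCaP, 8.80% called. Both shares lie near those of all regions (25.3% and 8.75%). The genes below were chosen after values were seen, and no gene's count was tested. Over all regions 15.7% rose and 9.62% fell in LNCaP, and 6.09% and 2.66% in VCaP. The LNCaP counts of ATP7B, FRRS1 and TFRC lie near the share of all regions called. ATP7B, the copper-exporting ATPase mutated in Wilson disease, had 4 higher and 0 lower of 17 regions in LNCaP and 6 and 0 of 21 in VCaP, the largest being 1 region 23 kb upstream in both lines (84.8 ± 6.03 and 91.6 ± 8.64 points). FRRS1, a ferric reductase, had 4 higher and 1 lower of 19 in LNCaP and 2 and 1 of 10 in VCaP. The falling region was the same in both (−56.7 ± 3.05 and −63.1 ± 11.5). It lies 106.8 kb downstream of the FRRS1 start, and which gene it acts on was not measured. TFRC, the transferrin receptor that works with STEAP3, had 3 higher and 2 lower of 19 in LNCaP and 0 of 9 called in VCaP. CYBRD1, a duodenal ferric reductase, had 3 higher and 1 lower of 11 in LNCaP and 0 and 1 of 12 in VCaP.

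The regions elsewhere in the genome whose ranks most resembled the leading STEAP sites over 15 libraries were found by Pearson's r. They are described only: the libraries share depth and dose, and many regions follow dose. For the falling STEAP2 −11.9 kb in LNCaP these were nearest to PRSS23, RGS6 and HEG1 (r = 0.990, 0.989 and 0.986), and for the rising STEAP3 +68.3 kb to SEMA6D, TTC32 and ZDHHC23 (0.942, 0.940 and 0.938). In VCaP, regions near ASIC2 and COBL were among those that followed the falling STEAP2 −18.7 kb most closely (0.950 and 0.947). The rising STEAP3 +52.2 kb was matched near POLD3, OSMR and CCDC102A (0.982, 0.980 and 0.980).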

How the data were processed

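Each of the 30 libraries has 1 deposited peak list. Per the submitters' processing notes, the tools were MACS2 2.2.7.1, BWA 0.7.17, deepTools 3.5.1 and Trimmomatic 0.39, and the build GRCh38 (hg38). In the lists the authors deposited, each summit has a score, a ratio (fold enrichment over local background), a −log10 p, a −log10 q and an offset; the score is 10 times the −log10 p.

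Non-overlapping windows of 501 bp were placed on summits, strongest first, giving 444783 regions. Lists were first shortened to the shortest of their line by −log10 p, 134964 entries in LNCaP and 104924 in VCaP. The best peak overlapping a region by 1 bp or more gives its percentile rank. limma 3.58.1 (R 4.3.3, trend and robust) was fitted to the 15 libraries of a line over all regions with a peak in at least 3, two-sided. The difference between lines was fitted to 30 libraries. The fit was tried on simulated LNCaP values with normal spread and no floor, in which only regions of middle rank were shifted. That trial does not cover sites with a rank of 0 in all vehicle libraries. Summit pileup and local background were solved from fold enrichment and −log10 p under a Poisson model, and 100% of pileups were whole within 0.05; background is percentile 1 of a library's solved values. These pileups were looked at after the ranks were seen and carry no test. The number of reads behind the lists is unknown, so no counting intervals are given.

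Named regions are the one nearest each start, the 3 largest called rises and falls per gene and line at 10 nM, the 3 largest each way for the other 2 contrasts per line, and the 4 smallest p of the line difference; likeness was searched within 100 kb of coding genes, and 1 gene it named is not reported here. Members, lists and rules were chosen with earlier results of these data known. Alternatives were all peaks as deposited, a −log10 q of at least 5, peaks over the centre base, ranking by fold enrichment, a peak in at least 8 libraries, only the groups compared, the replicate block, each library left out and, chosen after seeing the data, summits inside the region. Sequences of distal sites were not printed, since no genome was used here.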

Additional observations from a re-analysis of the deposited data

Results flagged for a closer look

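The test of the difference between the lines drew attention to 5 regions, as the change at 10 nM in LNCaP minus that in VCaP. STEAP1 +2.8 kb gave −61.05 and STEAP1 +3.5 kb −56.2 points; both lie under 1 peak, already listed with vehicle in LNCaP and gained in VCaP. STEAP2 −11.9 kb gave −66.9 points, with a fall in LNCaP from a rank of 90.8 ± 1.68 (SD, n = 3) to 8.13 ± 14.1 and in VCaP from 15.8 ± 27.3 to 0. A rank cannot go below 0, so VCaP could fall there by no more than its vehicle rank. STEAP3 +52.2 kb gave −51.7 points, with a rise to 25.7 ± 22.4 in LNCaP and to 77.4 ± 6.79 in VCaP. STEAP2 −18.7 kb, outside the naming rule for this contrast and named after its value was seen, gave 43.96 points. Leaving out 1 of the 12 libraries compared at a time, the call stood in 12 fits at STEAP1 +2.8 kb, 10 at STEAP1 +3.5 kb (lost without LNCaP 10 nM replicate 4 or vehicle replicate 5), 11 at STEAP2 −11.9 kb (lost without LNCaP 10 nM replicate 5), 4 at STEAP3 +52.2 kb and 5 at STEAP2 −18.7 kb. Ranked by fold enrichment, STEAP1 +2.8 kb and STEAP1 +3.5 kb lost the call (adjusted p = 0.0674 for both). STEAP1 +3.5 kb also lost it with only the groups compared (0.0664) and with only summits inside the region (0.0513). STEAP2 −11.9 kb lost it by fold enrichment (0.0603), with only the groups compared (0.0939) and with all peaks as deposited (0.2245). STEAP3 +52.2 kb lost it in the same runs (0.0556, 0.120 and 0.355). Groups of 3 are too small to test single libraries as outliers.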

How the results depend on the processing

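Counts of called STEAP regions moved most with a −log10 q of at least 5, which leaves fewer regions tested (47 in LNCaP, 19 in VCaP): 9 in place of 20 and 4 in place of 15 for LNCaP 10 nM against vehicle and against low doses, 2 at 0.03 nM and 6 at 0.1 nM. In VCaP that setting gave 2 in place of 9, 1 in place of 5, 1 for low doses, and 0 at 0.03 nM, at 0.06 nM and for the line difference. Ranking by fold enrichment gave 1 at LNCaP 0.06 nM, and in VCaP 3 for 10 nM against low doses, 0 for low doses, 0 at 0.03 nM and 2 at 0.06 nM, and 2 for the line difference. With only the groups compared, counts were 1 at LNCaP 0.06 nM and 1 at 0.1 nM, 0 for VCaP low doses, 0.03 nM and 0.06 nM, and 1 for the line difference. With summits inside the region they were 2 at LNCaP 0.03 nM, 5 for VCaP 10 nM against vehicle, 3 against low doses, 1 for low doses, 0 at 0.03 nM and 2 for the line difference. All peaks as deposited gave 2 at VCaP 0.03 nM and 2 for the line difference; peaks over the centre base gave 4 at LNCaP 0.1 nM and 0 at VCaP 0.03 nM; a peak in at least 8 libraries gave 3 for the line difference. The cause was not tested.

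Libraries share replicate numbers. Same-number libraries correlated in their deviations by −0.155 to 0.476 in LNCaP (median 0.124, other pairs −0.096) and by 0.0752 to 0.333 in VCaP (median 0.155, other pairs −0.108). They lean together, but not every pair exceeded 0.1, the level set for pairing. The replicate block gave 5 for LNCaP low doses, 2 at 0.03 nM, 4 at 0.1 nM (2 of each direction) and 2 at VCaP 0.03 nM, and moved no other count by over 1.5 times.

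With each library left out, counts ran from 15 to 21 and 9 to 16 for LNCaP 10 nM against vehicle and against low doses (9 without 10 nM replicate 5). They ran from 3 to 5 for low doses (5 without vehicle replicate 5), and from 0 to 1, 1 to 5 and 2 to 5 at 0.03, 0.06 and 0.1 nM. In VCaP they ran from 6 to 11 and 3 to 6 (3 without 10 nM replicate 1), 2 to 4 for low doses, and 0 to 1, 0 to 3 and 0 to 5 at 0.01, 0.03 and 0.06 nM. The line difference ran from 2 to 6. The direction turned at STEAP2 +19.7 kb by fold enrichment (−17.6), at the uncalled STEAP2 start with all peaks (0.083) and at STEAP2 +13.6 kb with summits inside the region (0, no change). An unlisted site may hold weaker signal, since lists end at the authors' threshold and were then shortened. Ranking by fold enrichment also called the LNCaP starts of STEAP1, STEAP2 and STEAP4 and the VCaP start of STEAP4 lower.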
